A study of Mus musculus with 8 samples.

Results

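The genes of cholesterol and fatty acid synthesis that are known as targets of the sterol regulatory element binding proteins (SREBPs) were examined in RAW 264.7 cells, a macrophage-like mouse line that originated from BALB/c mice. The 33 genes were taken by name from the probes of the array, Msmo1 also under its older name Sc4mol, and all 33 were among the 15203 named genes measured. They were divided into a sterol arm of 22 genes and a fatty acid arm of 11 genes. The cells had received a single strain, which was *Lactobacillus acidophilus*, *Bacillus clausii* or else *Bifidobacterium bifidum*, at a multiplicity of infection of 1, for 6 hours, and untreated cells of the same time point were the reference. On every two-colour Agilent array the RNA of treated cells carried Cy5 and that of untreated cells Cy3, so each array gave a log2 ratio of treated over untreated cells, in which 1 stands for a doubling. The dyes were not swapped on any array. *L. acidophilus* had 2 arrays, *B. clausii* had 3 and *B. bifidum* had 3. The design text speaks of 3 biological replicates, but no label ties an array to a culture of its own, so the p-values measure the spread between these arrays only, which may be technical, and leave out the spread of untreated cells among themselves. All RNA came from 1 cell line, and a change in the RNA per cell cannot be told apart from a change in the number of cells that express a gene.

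Cholesterol is built from acetyl-CoA through mevalonate, isoprenoid diphosphates, squalene and lanosterol, and fatty acids from acetyl-CoA through malonyl-CoA, followed by elongation and desaturation. When sterol in the endoplasmic reticulum is low, SREBPs are escorted to the Golgi, cleaved, and enter the nucleus, where they act on sterol regulatory elements, often beside sites for the factors NF-Y and Sp1. SREBP-2, encoded by Srebf2, is known mainly for the sterol genes. In macrophages the pathway is also known for its ties to innate immune signalling.

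Promoter windows of 250 bases before the transcription start were available for 26 of the 33 genes from RefSeq (build GRCm38.p6), and the 5 windows printed here belong to genes on which the results turn. Capitals mark the letters TCACNCCAC, which form the core of a sterol regulatory element, and CCAAT, the core of an NF-Y site, on either strand (ATTGG is CCAAT on the other strand).
Hmgcs1, chr13:119690101-119690350, plus strand: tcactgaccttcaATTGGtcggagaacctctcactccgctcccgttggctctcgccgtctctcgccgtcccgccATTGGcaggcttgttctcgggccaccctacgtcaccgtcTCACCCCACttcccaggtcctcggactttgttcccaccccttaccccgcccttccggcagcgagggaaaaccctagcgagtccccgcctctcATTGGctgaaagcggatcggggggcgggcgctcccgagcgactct
Idi1, chr13:8885356-8885605, plus strand: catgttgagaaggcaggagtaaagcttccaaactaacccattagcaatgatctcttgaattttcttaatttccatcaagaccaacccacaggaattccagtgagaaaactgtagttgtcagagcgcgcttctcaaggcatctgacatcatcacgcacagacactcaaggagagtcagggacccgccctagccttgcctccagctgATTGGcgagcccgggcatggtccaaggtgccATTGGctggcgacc
Msmo1, chr8:64733579-64733828, minus strand: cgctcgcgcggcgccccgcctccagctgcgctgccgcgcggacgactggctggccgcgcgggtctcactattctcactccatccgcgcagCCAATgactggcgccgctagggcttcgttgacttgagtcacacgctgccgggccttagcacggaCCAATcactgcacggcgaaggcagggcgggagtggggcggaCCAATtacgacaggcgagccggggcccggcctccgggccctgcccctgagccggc
Elovl5, chr9:77917115-77917364, plus strand: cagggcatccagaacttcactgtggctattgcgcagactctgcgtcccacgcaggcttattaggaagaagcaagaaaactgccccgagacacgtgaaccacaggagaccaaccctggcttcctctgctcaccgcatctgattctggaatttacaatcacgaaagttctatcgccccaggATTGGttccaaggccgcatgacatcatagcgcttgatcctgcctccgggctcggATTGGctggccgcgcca
Me1, chr9:86695915-86696164, minus strand: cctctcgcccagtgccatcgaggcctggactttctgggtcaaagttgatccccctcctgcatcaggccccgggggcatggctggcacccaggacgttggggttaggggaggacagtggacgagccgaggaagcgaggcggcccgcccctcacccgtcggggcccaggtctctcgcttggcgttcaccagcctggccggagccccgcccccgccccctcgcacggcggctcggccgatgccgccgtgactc
The Hmgcs1 window was the only one among the members with TCACNCCAC, which began 137 bases before the start, a string found in windows of 1.22% of the 27025 genes with RefSeq windows of this length. CCAAT stood in at least 1 window of 17 of the 18 sterol genes that had one and of 4 of the 8 fatty acid genes, beside 37.5% of those genes. GGGCGG, the letters of a GC box searched on both strands, stood in windows of 16 of the 18 and 4 of the 8, beside 35.4% of them. Base composition was not matched. A match is a string of letters and not a measured binding site. Among the genes with low ratios on slide 2, Fasn, Ggps1, Hsd17b7 and Tm7sf2 also held CCAAT, and so did another window of Me1, although the one printed held neither string in capitals.

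The arrays lay on 2 slides, and the slide has to be known before any ratio is read. Both *L. acidophilus* arrays were on slide 1, together with the arrays numbered 3 of the other strains. The arrays numbered 1 and 2 of *B. clausii* and *B. bifidum* made up slide 2. *L. acidophilus* and slide 1 therefore cannot be told apart. On 7 arrays 32 or 33 of the members and 21508 to 26473 probes were well above background, against 22 members and 12543 probes on replicate 3 of *B. clausii*. The members not well above background there were Acat2, Fdft1, Lss, Nsdhl, Insig1, Stard4, Acly, Acss2, Acaca, Fads1 and Fads2. Their slide 1 values with *B. clausii*, and their differences between slides, therefore rest in part on dim spots. On replicate 3 of *B. clausii* the scanner's median coefficient of variation for background-subtracted signals of non-control probes was 72.5% in Cy5. The other arrays lay between 15.7% and 21.5%. No member was saturated. Among 9 macrophage markers on the array, 7 were well above background in the untreated channel of all 8 arrays, Fcgr1 on 7, and Mertk on 0. Epcam, Adipoq, Ttr and Ms4a1, markers of epithelium, adipocytes, hepatocytes and B cells, were above it on 0 arrays, whereas the T-cell marker Cd8a was on 7.

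The 33 ratios fell into a plain order by array. On slide 2, 16 of the 22 sterol genes stood above untreated cells on both *B. clausii* arrays and 4 below, whereas 4 stood above and 15 below on both *B. bifidum* arrays. Of 14908 genes measured on every array, 40.1% stood above and 43.7% below on both *B. clausii* arrays, and 35.9% and 42.8% on both of *B. bifidum*. On the 4 arrays of slide 1 every member lay between -0.52 and 0.41, whichever strain had been added. The median log2 ratio of the sterol arm was 0.46 and 0.39 on the slide 2 arrays of *B. clausii* and 0.06 on its slide 1 array. It was -0.18 and -0.14 on the slide 2 arrays of *B. bifidum* and -0.14 on its slide 1 array, and -0.02 and -0.04 with *L. acidophilus*. The median of the fatty acid arm stayed near that of all genes with *B. clausii*, at -0.02 and -0.06 on slide 2 and 0.07 on slide 1. With *B. bifidum* it was -0.15, -0.11 and -0.03, and with *L. acidophilus* 0.02 and 0.03. The medians over all genes lay between -0.02 and 0.01.

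With median centring in place of loess, which subtracts 1 value per array and keeps any trend with brightness, the sterol median turned to -0.07 on replicate 1 of *B. clausii* and was 0.04 on replicate 2. The medians over all genes then stood at -0.32 and -0.30, so that relative to all genes the sterol arm was higher by 0.26 and 0.33. For *B. bifidum* the sterol arm was lower than all genes by log2 differences of -0.31, -0.56 and -0.25 under this centring. Relative to all genes, the sterol arm was thus on the same side under both normalizations on these 5 arrays, while on replicate 3 of *B. clausii* it passed from 0.06 to -0.03.

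**Figure D1:**
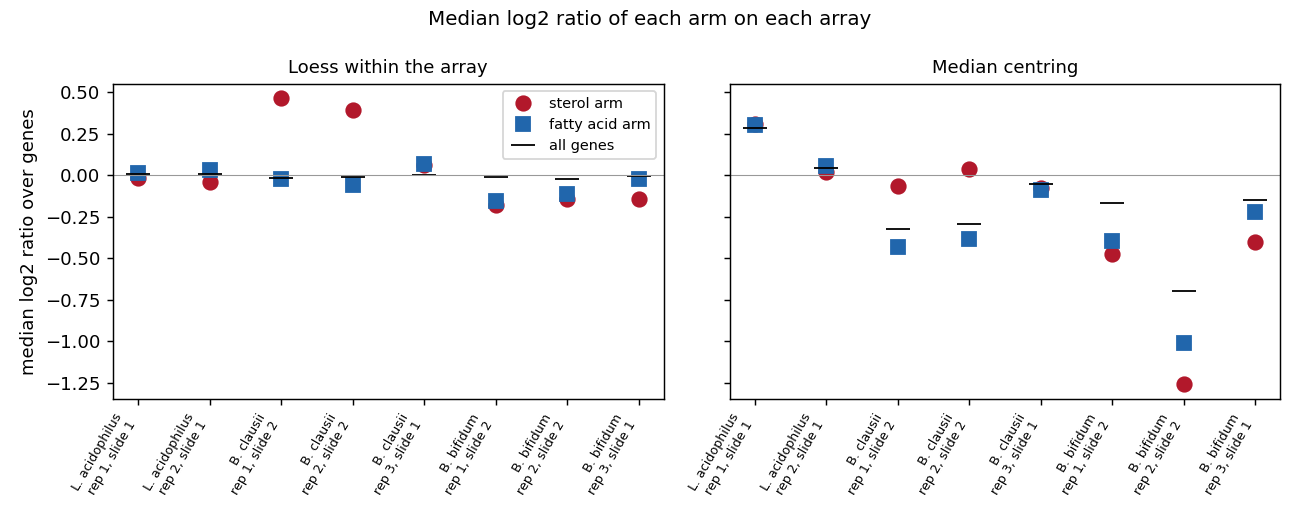
Median log2 ratio of treated over untreated cells over the 22 genes of the sterol arm (circles), the 11 genes of the fatty acid arm (squares) and all measured genes (bars) on each of the 8 arrays, with loess within the array (left) and median centring (right). The sterol arm reached 0.46 and 0.39 on the 2 slide 2 arrays of *B. clausii* with loess, and -0.07 and 0.04 with median centring, where the medians of all genes were -0.32 and -0.30.

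Over all arrays, 5 of the 33 members rose with *B. clausii* and 0 fell, where 2.17% of the 15203 genes rose, 2.60% fell and 4.77% were called in either direction. These were Pmvk and Idi1 of the mevalonate and isoprenoid steps, Sqle and Ebp of the steps after squalene, and the elongase Elovl5. With *B. bifidum* 1 member fell, Hsd17b7, and 0 rose, beside 1.22% of genes that fell, 0.506% that rose and 1.72% called. With *L. acidophilus* 0 members and 0% of genes were called by limma, although 2 members of the sterol arm and 1103 genes (7.26%) were below 0.05 before adjustment. All calls are from limma with Benjamini-Hochberg adjustment over 15203 genes at 0.05. The 5 calls for *B. clausii* had adjusted p-values between 0.0419 and 0.0484, and the count became 0 without any 1 of 6 arrays (both *L. acidophilus*, replicates 1 and 2 of *B. clausii*, replicates 1 and 2 of *B. bifidum*). It was also 0 without background correction, with the scanner's processed signals and with median centring. It became 24 without replicate 3 of *B. clausii* and 8 without replicate 3 of *B. bifidum*, where 36.0% and 11.2% of all genes were called. The single call for *B. bifidum* was likewise lost without any of the same 6 arrays, and the count became 6 and 7 without the replicates 3, beside 9.27% and 13.7% of genes.

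Between the slides, 12 of the 33 members differed in their ratio when the strain was held fixed, where 25.9% of all genes did (limma, 8 arrays), 10.1% being higher on slide 2 and 15.8% lower. Hmgcs1, Fdft1, Sqle, Lss, Msmo1, Insig1, Elovl5 and Fads1 were higher on slide 2, and Ggps1, Tm7sf2, Acss2 and Fasn were lower. Of these, Fdft1, Lss, Insig1, Acss2 and Fads1 were not well above background on the slide 1 array of *B. clausii*. The count of 12 became 7 without replicate 1 of *B. clausii* (18.6% of genes), 22 without replicate 3 of *B. bifidum* (38.6%), and 5 with median centring (14.6%). There the terms of Elovl5 and Fads1 turned to -0.018 and -0.071. With the slide as a block, 14 members were called for *B. clausii* (12 rose, 2 fell), beside 25.2% of genes (10.7% rose, 14.5% fell). The same fit called 5 for *B. bifidum* (1 rose, 4 fell), beside 14.0% (3.96% rose, 10.0% fell), and 1 for *L. acidophilus* (a fall), beside 2.74% (1.00% rose, 1.74% fell). On the 4 arrays of slide 2 alone, 29 members were called for *B. clausii* (21 rose, 8 fell), beside 55.9% of genes (25.7% rose, 30.3% fell). There, 19 members were called for *B. bifidum* (4 rose, 15 fell), beside 38.7% (15.1% rose, 23.6% fell). By arm, 16 of the 22 sterol genes rose and 3 fell with *B. clausii* on slide 2, and 5 of the 11 fatty acid genes rose and 5 fell. With *B. bifidum* 2 sterol genes rose and 11 fell, and 2 fatty acid genes rose and 4 fell. Slide 1 held 1 array of each of these strains and gave no test of its own. Under median centring the slide 2 count for *B. clausii* was 7 (26.7% of genes), with 1 rise and 6 falls, and 9 of its 21 rises turned negative, 2 of them (Sc5d and Fads1) also relative to the all-gene median of -0.31. For *B. bifidum* it was 19 (36.9% of genes), with 0 rises, against an all-gene median of -0.43, and Sqle, Elovl5 and Fads1 turned, with Sqle and Nsdhl turned relative to that median.

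**Figure D2:**
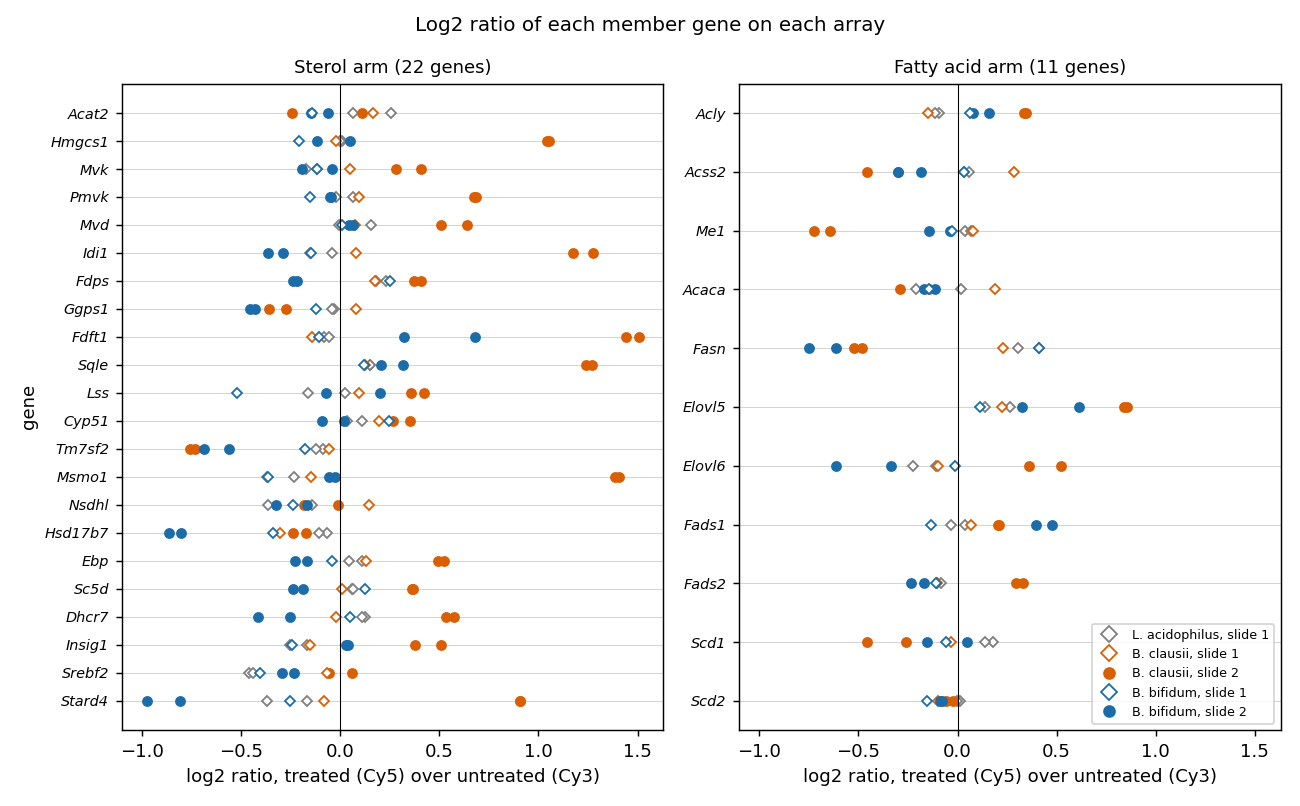
Log2 ratio of treated over untreated cells for each of the 33 members on each of the 8 arrays, with loess within the array; colours give the strain, filled circles slide 2 and open diamonds slide 1. The open diamonds lie between -0.52 and 0.41, and the filled orange circles of *B. clausii* reach 1.51 for Fdft1; under median centring 9 of the 21 genes that rose with *B. clausii* on slide 2 turn negative (Pmvk, Mvd, Fdps, Ebp, Sc5d, Dhcr7, Acly, Fads1 and Fads2), where the median of all genes is -0.31, as do Sqle, Elovl5 and Fads1 with *B. bifidum*, where it is -0.43.

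Among the mevalonate steps, Hmgcs1, which makes HMG-CoA, had log2 ratios of 1.05 and 1.04 on the slide 2 arrays of *B. clausii* and -0.02 on slide 1. With *B. bifidum* its ratios were 0.05, -0.12 and -0.21, and with *L. acidophilus* 0.01 and 0.00. Only the slide 2 arrays of *B. clausii* were high. On slide 2 Hmgcs1 rose 2.07-fold with *B. clausii* (log2 1.05 ± 0.06, SE, n = 2 arrays, limma adjusted p = 0.000167). A second probe of the gene, well above background on 3 arrays, read -0.01 and -0.16 on the same arrays, so the 2 probes disagreed.

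Pmvk, the kinase that makes mevalonate diphosphate, had ratios of 0.67, 0.69 and 0.09 with *B. clausii*. They were -0.04, -0.05 and -0.15 with *B. bifidum* and 0.07 and -0.02 with *L. acidophilus*. The lowest *B. clausii* array lay above every other array, by a small margin on slide 1. Over the 3 arrays Pmvk rose 1.40-fold (log2 0.48 ± 0.11, SE, limma adjusted p = 0.0480), and its second probe read 0.70 and 0.69 on slide 2. On slide 1 that probe read -0.04 with *B. clausii*, below every array of the other strains, so it did not repeat the separation there. Under median centring the mean of Pmvk was -0.028, against an all-gene median of -0.22. Mvk and Mvd, the kinase before it and the decarboxylase after it, rose on slide 2 with *B. clausii* by 0.34 and 0.57 (limma adjusted p = 0.00568 and 0.000551), Mvd turning to -0.045 under median centring. Acat2, which condenses acetyl-CoA, read -0.24 and 0.11 on slide 2 and 0.17 on slide 1 with *B. clausii* and was not called, and its untreated channel was not well above background on either *L. acidophilus* array. None of the 5 mevalonate genes was called with *B. bifidum* on slide 2, where their means lay between -0.12 and 0.05.

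Idi1, which isomerises isopentenyl diphosphate, stood at 1.28 and 1.17 on the slide 2 arrays of *B. clausii* and at 0.08 on slide 1. With *B. bifidum* it read -0.29, -0.36 and -0.15, and with *L. acidophilus* -0.15 and -0.04. Every *B. clausii* array was above 0 and every other array below it. The rise over 3 arrays was 1.79-fold (log2 0.84 ± 0.20, SE, limma adjusted p = 0.0478). On slide 2 it was 2.34-fold (adjusted p = 0.000120), and with *B. bifidum* Idi1 fell to 0.798 of untreated (adjusted p = 0.00526). A second probe gave 0.44 and 0.63 with *B. clausii*, the same sign at a lower size. Fdps, the farnesyl diphosphate synthase, went the same ways on slide 2, with a mean of 0.39 for *B. clausii* (-0.30 under median centring, where all genes stood at -0.31) and -0.23 for *B. bifidum* (adjusted p = 0.00106 and 0.00977).

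Ggps1, which draws farnesyl diphosphate towards protein prenylation and away from squalene, was low with both strains. Its ratios were -0.36 and -0.27 with *B. clausii* and -0.45 and -0.43 with *B. bifidum* on slide 2, against 0.08 and -0.12 on slide 1 and -0.03 and -0.04 with *L. acidophilus*. Slide 2 arrays of both strains lay below all of slide 1. It fell to 0.803 of untreated with *B. clausii* and to 0.737 with *B. bifidum* on slide 2 (limma adjusted p = 0.00297 and 0.00159, n = 2 arrays each). A second probe of Ggps1 read -0.13 and -0.28 with *B. clausii* and -0.41 and -0.17 with *B. bifidum* on slide 2. On slide 1 that probe read -0.24 and -0.14 with these strains, so the slides overlapped on it.

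The 11 genes from squalene to cholesterol began with Fdft1, the squalene synthase, which had ratios of 1.51 and 1.44 on the slide 2 arrays of *B. clausii* and -0.14 on slide 1. With *B. bifidum* it read 0.68, 0.32 and -0.11, and with *L. acidophilus* -0.08 and -0.06. Slide 2 was high with both strains and slide 1 with neither, although Fdft1 was not well above background on the slide 1 array of *B. clausii*. On slide 2 it rose 2.78-fold with *B. clausii* and 1.42-fold with *B. bifidum* (limma adjusted p = 0.000220 and 0.00871).

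Sqle, the squalene epoxidase, is a rate-limiting enzyme of the pathway. It read 1.27, 1.24 and 0.13 with *B. clausii*, 0.32, 0.21 and 0.12 with *B. bifidum*, and 0.15 on both *L. acidophilus* arrays. All 8 arrays were thus above 0, and only those of *B. clausii* on slide 2 stood well above the rest. Over 3 arrays Sqle rose 1.84-fold with *B. clausii* (log2 0.88 ± 0.19, SE, limma adjusted p = 0.0444). With *B. bifidum* on slide 2 it rose 1.20-fold (adjusted p = 0.00988), a value that turned to -0.60 under median centring.

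Msmo1, which removes the methyl groups at carbon C4 of the sterol ring, had ratios of 1.41 and 1.38 with *B. clausii* on slide 2 and -0.15 on slide 1. With *B. bifidum* it read -0.03, -0.06 and -0.36, and with *L. acidophilus* -0.37 and -0.23. The high values were those of *B. clausii* on slide 2 alone. There Msmo1 rose 2.63-fold (log2 1.40 ± 0.04, SE, n = 2 arrays, limma adjusted p = 9.8e-05), while with *B. bifidum* it did not pass (adjusted p = 0.460).

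Ebp, the sterol isomerase, read 0.53, 0.49 and 0.13 with *B. clausii*, -0.17, -0.23 and -0.04 with *B. bifidum*, and 0.11 and 0.04 with *L. acidophilus*. The *B. clausii* arrays were all above the others and the *B. bifidum* arrays all below. Over 3 arrays Ebp rose 1.30-fold with *B. clausii* (log2 0.38 ± 0.09, SE, limma adjusted p = 0.0484), against a mean of -0.11 under median centring. Lss, the lanosterol synthase, had ratios of 0.42, 0.36 and 0.10 with *B. clausii* and -0.07, 0.20 and -0.52 with *B. bifidum*, the last of which was the lowest value of any member on slide 1. With *L. acidophilus* it read 0.02 and -0.16, and the *B. bifidum* arrays spread more widely than the others. On slide 2 Lss rose 1.31-fold with *B. clausii* (limma adjusted p = 0.00804) and did not pass with *B. bifidum* (adjusted p = 0.539). Cyp51, a demethylase, Sc5d, a desaturase, and Dhcr7, the reductase of the last step, rose there by 0.31, 0.37 and 0.55, with Sc5d turning to -0.31 and Dhcr7 to -0.065 under median centring. Sc5d and Dhcr7 fell with *B. bifidum* on slide 2 by 0.21 and 0.33 (limma adjusted p = 0.0129 and 0.00658). A second probe of Dhcr7 read -0.04 and 0.03 with *B. bifidum* there and did not repeat the fall. With *B. clausii* that probe read 0.35 and 0.03.

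The remaining genes of these steps were low. Tm7sf2, a sterol reductase that shares its reaction with the lamin B receptor, read -0.76 and -0.73 with *B. clausii* and -0.69 and -0.56 with *B. bifidum* on slide 2. On slide 1 it was -0.06 and -0.18 for these strains and -0.09 and -0.12 for *L. acidophilus*, so the slides did not overlap. It fell to 0.596 and 0.648 of untreated on slide 2 (limma adjusted p = 0.000268 and 0.000804).

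Hsd17b7, a ketosteroid reductase of the C4 demethylation complex, had ratios of -0.80, -0.86 and -0.34 with *B. bifidum*. They were -0.24, -0.17 and -0.31 with *B. clausii* and -0.07 and -0.11 with *L. acidophilus*. All 8 arrays lay below 0 and those of *B. bifidum* were the lowest on both slides. The fall with *B. bifidum* was to 0.629 of untreated (log2 -0.67 ± 0.10, SE, n = 3, limma adjusted p = 0.0220). A second probe of Hsd17b7 read 0.19, 0.06 and -0.40 on the same arrays and so did not repeat it on slide 2. Nsdhl, of the same complex, fell on slide 2 with *B. bifidum* by 0.25 (adjusted p = 0.0338) and did not pass with *B. clausii* (adjusted p = 0.250). A second probe of Nsdhl read 0.12 and -0.15 on the slide 2 arrays of *B. bifidum* and did not repeat the fall. A further probe read -0.23 and -0.14 there.

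Of the genes for control and transport, Insig1, which holds the SREBP escort in the endoplasmic reticulum and is itself an SREBP target, read 0.51, 0.37 and -0.15 with *B. clausii*. With *B. bifidum* it read 0.04, 0.03 and -0.24, and with *L. acidophilus* -0.17 and -0.25. It was above 0 on slide 2 and below 0 on slide 1 with every strain measured there. On slide 2 it rose 1.36-fold with *B. clausii* (limma adjusted p = 0.00130), and its other probe gave 0.66 and 0.44. Srebf2, which encodes SREBP-2, was not called with *B. clausii* on slide 2, with a mean of 0.00 ± 0.05 (SE, adjusted p = 0.999), although its second probe read 0.29 and 0.37. With *L. acidophilus* Srebf2 read -0.46 and -0.44 and was not called over all arrays. It fell with the slide as a block (log2 -0.40, limma adjusted p = 0.0344), where the slide term rests on the other strains, since *L. acidophilus* had no slide 2 array. With *B. bifidum* Srebf2 fell by 0.26 on slide 2 (limma adjusted p = 0.0111). The second probe read 0.04 and 0.02 with *L. acidophilus* and -0.05 and 0.04 with *B. bifidum* on slide 2, so it repeated neither fall.

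Stard4, a carrier of cholesterol between membranes, differed most between the strains. Its ratios were 0.91, 0.91 and -0.08 with *B. clausii* and -0.98, -0.81 and -0.26 with *B. bifidum*, beside -0.17 and -0.37 with *L. acidophilus*. On slide 2 it rose 1.88-fold with *B. clausii* and fell to 0.538 of untreated with *B. bifidum* (limma adjusted p = 0.000223 and 0.000544). Its 2 other probes gave 0.33 and 0.42, and 0.08 and 0.05, with *B. clausii*, and between -0.56 and -0.24 with *B. bifidum*, so the directions were shared and the sizes were not. The untreated level of Stard4 was itself 1.07 higher in log2 on slide 2 than on slide 1, and its part in the ratios was not tested.

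**Figure D3:**
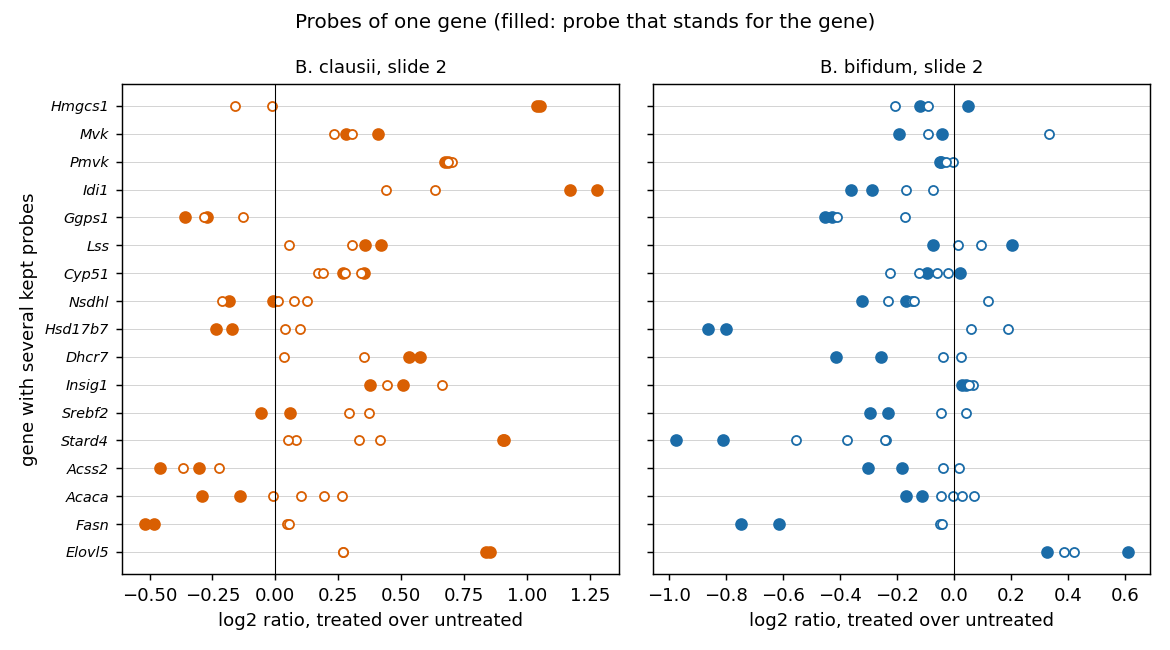
Log2 ratios of the separate kept probes of the 17 members that have more than 1, on the 2 slide 2 arrays of *B. clausii* (left) and of *B. bifidum* (right); filled circles are the probe with the highest mean brightness, which stands for the gene, and open circles the others. Pmvk reads alike on its probes (0.67 and 0.69 against 0.70 and 0.69), while Hmgcs1 (1.05 and 1.04 against -0.01 and -0.16) and Fasn (-0.52 and -0.48 against 0.05 and 0.06) do not; under median centring the slide 2 mean of Pmvk with *B. clausii* is -0.0052, where the median of all genes is -0.31.

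The fatty acid arm moved in both directions. Among the suppliers of acetyl-CoA and NADPH, Acly, the ATP citrate lyase, rose with *B. clausii* on slide 2 by 0.34 (limma adjusted p = 0.00215), which turned to -0.21 under median centring. Me1, the cytosolic malic enzyme, read -0.64 and -0.72 with *B. clausii* on slide 2, 0.08 on slide 1, and between -0.14 and 0.07 on the other 5 arrays. Only the slide 2 arrays of *B. clausii* were low, and there Me1 fell to 0.623 of untreated (limma adjusted p = 0.000346). In the untreated channel the log2 level of Me1 was lower on slide 2 by a difference of -1.02, and this was not tested for its part in the ratio. Acss2, the acetyl-CoA synthetase, read -0.46, -0.30 and 0.29 with *B. clausii*, -0.18, -0.30 and 0.03 with *B. bifidum*, and 0.06 and 0.03 with *L. acidophilus*. It was below 0 on slide 2 and above 0 on slide 1 with every strain, and it fell on slide 2 with both (adjusted p = 0.00390 and 0.0254). A second probe of Acss2 read -0.367 and -0.225 on the slide 2 arrays of *B. clausii*. With *B. bifidum* it read 0.02 and -0.04 there and did not repeat the fall.

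Fasn, the fatty acid synthase, had ratios of -0.52, -0.48 and 0.23 with *B. clausii* and -0.75, -0.61 and 0.41 with *B. bifidum*, beside 0.41 and 0.30 with *L. acidophilus*. All slide 1 arrays were above 0 and all slide 2 arrays below it, a difference of -0.91 between the slides (limma adjusted p = 0.00100). On slide 2 Fasn fell to 0.706 of untreated with *B. clausii* and 0.624 with *B. bifidum* (adjusted p = 0.000893 and 0.000736). Its second probe read 0.05 and 0.06 and -0.05 and -0.04 on those arrays and did not show the fall. Acaca, the acetyl-CoA carboxylase that makes malonyl-CoA, fell with *B. clausii* on slide 2 by 0.22 (adjusted p = 0.0197), and its 2 other probes lay between -0.01 and 0.26.

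Elovl5, which elongates polyunsaturated chains, read 0.85, 0.84 and 0.22 with *B. clausii*, 0.61, 0.33 and 0.11 with *B. bifidum*, and 0.26 and 0.14 with *L. acidophilus*. All 8 arrays were above 0, and slide 2 was higher than slide 1 with both strains. Over 3 arrays it rose 1.56-fold with *B. clausii* (log2 0.64 ± 0.14, SE, limma adjusted p = 0.0419), the smallest adjusted p among the members that rose. On slide 2 it also rose with *B. bifidum*, by 0.47 (adjusted p = 0.00614), which turned to -0.30 under median centring. A second probe read 0.27 on both slide 2 arrays of *B. clausii* and 0.30 on slide 1, so slide 2 was not higher on it with that strain. With *B. bifidum* that probe read 0.42 and 0.39 on slide 2, above *B. clausii*, and 0.11 on slide 1.

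Elovl6, which elongates saturated chains, parted the strains. It read 0.52, 0.36 and -0.10 with *B. clausii* and -0.61, -0.34 and -0.01 with *B. bifidum*, beside -0.22 and -0.11 with *L. acidophilus*. On slide 2 it rose by 0.44 with the first and fell by 0.48 with the second (limma adjusted p = 0.00692 and 0.00759). Fads1, the delta-5 desaturase, was higher with *B. bifidum*, with ratios of 0.48, 0.40 and -0.13, than with *B. clausii*, with 0.20, 0.21 and 0.07. With *L. acidophilus* it read -0.04 and 0.04, so that only slide 2 stood apart, and both slide 2 values turned negative under median centring (-0.41 for *B. clausii*, -0.16 for *B. bifidum*). Fads2, the delta-6 desaturase, rose with *B. clausii* by 0.31 and fell with *B. bifidum* by 0.20 on slide 2, the first turning to -0.26 under median centring. Scd1, a stearoyl-CoA desaturase, fell with *B. clausii* there by 0.36 (adjusted p = 0.0105), and Scd2, another, was not called with either strain and lay between -0.15 and 0.01 on all arrays.

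*B. clausii* and *B. bifidum* were compared directly, since a dye effect equal on all arrays cancels between them. On slide 2, 20 of the 33 members were higher with *B. clausii* and 2 (Me1 and Fads1) were lower, where 14.9% of genes were higher, 14.7% lower and 29.6% called. In the sterol arm 17 of 22 were higher and 0 lower, with a median difference of 0.60. In the fatty acid arm 3 of 11 were higher (Elovl5, Elovl6 and Fads2) and 2 lower, with a median difference of 0.04. The second probe of Elovl5 went the other way, with 0.27 and 0.27 for *B. clausii* and 0.42 and 0.39 for *B. bifidum*. So did the slide 2 means of the second probe of Hsd17b7 in the sterol arm (0.07 against 0.12). The widest differences were those of Stard4 (3.48-fold, log2 1.80 ± 0.08, SE, limma adjusted p = 0.000689), Idi1 (2.93-fold, adjusted p = 0.000766) and Msmo1 (2.71-fold, adjusted p = 0.000645). All 22 kept their sign without background correction, with the scanner's processed signals and with median centring, under which 23, 5 and 0 members were called, beside 30.1%, 3.03% and 0% of genes.

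Over all 8 arrays 0 members were called between *B. clausii* and *B. bifidum* by limma, beside 0.0263% of genes, and 15 of the 22 sterol genes and 2 of the 11 fatty acid genes were below 0.05 before adjustment, as were 11.8% of all genes. Blocking on the slide gave a call for 1 member, Pmvk (limma adjusted p = 0.0492), which was higher with *B. clausii*, beside 1.54% of genes (0.960% higher, 0.579% lower). The 3 *B. clausii* arrays all lay above the 3 *B. bifidum* arrays for 9 members (Mvk, Pmvk, Mvd, Idi1, Hsd17b7, Ebp, Srebf2, Stard4 and Fads2) and all below for 0, beside 7.55% and 5.14% of 14908 genes. The second probe of Idi1 repeated this separation, and those of Mvk, Pmvk, Hsd17b7 and Srebf2 did not. The other probes of Stard4 were divided on it. The count of calls became 16 without replicate 3 of *B. clausii* (14.0% of genes) and 3 without replicate 3 of *B. bifidum* (3.07%). Against *L. acidophilus*, 0 members were called for either strain over all arrays, beside 0.0132% of genes for *B. clausii* and 0% for *B. bifidum*. For *B. clausii* this became 18 (17.0% of genes) without its replicate 3, the array that shared a slide with *L. acidophilus*, and for *B. bifidum* 1 (1.62%) without its replicate 3. At an unadjusted p under 0.05 there were 9 sterol genes and 1 fatty acid gene for *B. clausii* against *L. acidophilus*, beside 10.9% of all genes, and 1 and 0 for *B. bifidum*, beside 3.79%.

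**Figure D4:**
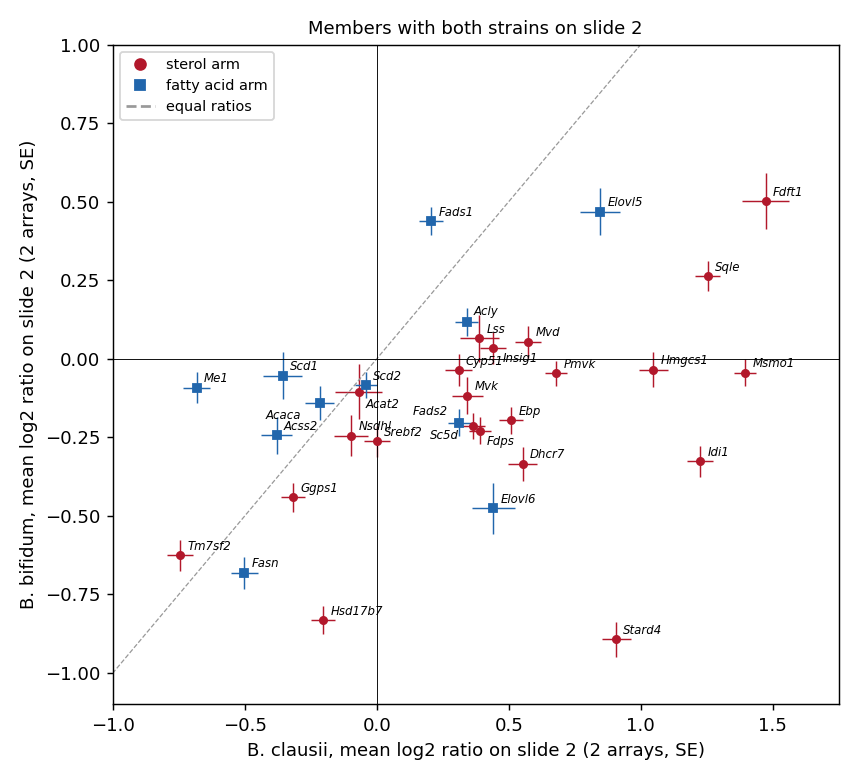
Mean log2 ratio of treated over untreated cells on the 2 slide 2 arrays of *B. clausii* (horizontal) and of *B. bifidum* (vertical) for the 33 members, with bars of 1 SE from the limma fit; circles are the sterol arm, squares the fatty acid arm, and the dashed line marks equal ratios. Of the 22 sterol genes, 21 lie below the dashed line, Stard4 farthest from it at 0.91 and -0.89; under median centring Pmvk, Mvd, Fdps, Ebp, Sc5d, Dhcr7, Acly, Fads1 and Fads2 turn negative on the horizontal axis and Sqle, Elovl5 and Fads1 on the vertical, where the medians of all genes are -0.31 and -0.43.

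The level of the members in untreated cells was read from the Cy3 channel of each array. It was higher on slide 2 than on slide 1 without overlap for 5 members and lower for 5, beside 21.4% and 14.7% of 14908 genes. The median difference between the slides was 0.10 in log2 for the sterol arm and 0.0077 for the fatty acid arm, beside 0.08 for all genes. Stard4, Srebf2, Acss2, Acaca and Fads2 were higher on slide 2, and Pmvk, Tm7sf2, Insig1, Me1 and Scd2 lower. Each of these levels is a denominator of the ratios above, and its part in them was not tested.

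Of 31 further genes of the same pathways, 29 were measured. Over all arrays 1 of them was called with *B. clausii*, beside 4.77% of all genes called and 2.60% that fell. It was Elovl1, an elongase of very long chains, which fell to 0.678 of untreated (limma adjusted p = 0.0372). With *B. bifidum* and *L. acidophilus* 0 were called, beside 1.72% and 0% of all genes. On slide 2, 10 rose and 9 fell with *B. clausii*, beside 25.7% of all genes that rose and 30.3% that fell. Tmem97, a sterol-responsive membrane protein, rose by 0.97 with ratios of 0.91 and 1.03, and Pdss1, which makes the side chain of coenzyme Q from farnesyl diphosphate, rose by 0.92. Scap, which escorts SREBPs to the Golgi, fell by 0.54 with *B. clausii* and by 0.80 with *B. bifidum*, and Soat1, which esterifies cholesterol, fell by 0.49 with *B. clausii* (limma adjusted p = 0.000442, 0.000447 and 0.000723). With *B. bifidum* 2 rose and 11 fell, beside 15.1% and 23.6% of all genes. Values of these genes under other normalizations were not computed. The median of the 29 genes on slide 2 was -0.01 with *B. clausii* and -0.13 with *B. bifidum*.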

How the data were processed

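RNA of treated and untreated RAW 264.7 cells was measured on 8 two-colour arrays (2, 3 and 3 for the strains). The deposited scanner files give each spot's brightness and background as linear intensity. The software was Agilent Feature Extraction, version 10.7.3.1 per the file headers and 10.5.1.1 per the submitters' processing notes. The authors' deposited value table equals the scanner's log10 ratio of Cy5 over Cy3 to within 0.005. The number of arrays limits the precision.

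Median signals were corrected with normexp (offset 50) and log2 ratios were normalized by loess within each array in limma 3.58.1 (R 4.3.3), with controls at weight 0 and outlier spots removed. Probes that stood well above background in either channel on 2 or more arrays were kept. Probes were named from the file and a RefSeq table of GRCm38.p6 (29169 of 43379 probe features), and the brightest kept probe stood for a gene. Of 56 member probes 2 were not kept, and no member lacked an array. Strain means were fitted over 8 arrays (lmFit, eBayes) and tested against 0 and between strains, with Benjamini-Hochberg adjustment over 15203 genes and a threshold of 0.05. The fits alone were tested on simulated log2 ratios that held no slide effect, and the earlier steps were not.

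Per-array values are given for members called over 8 arrays and for up to 6 members of each arm with the largest slide 2 means; values of some further members were added for context. The members, the other pathway genes and the markers were chosen with earlier results of these data known. The result of 1 listed marker is not reported here. Same-numbered *B. clausii* and *B. bifidum* arrays deviated together (r = 0.41, 0.30 and 0.46), as their slides do, and those with *L. acidophilus* did not (r between -0.09 and -0.06). The alternatives tried were signals without background correction, those processed by the scanner, the values of the deposited matrix, median centring, no filter and a strict filter, the mean of probes, only the arrays compared, the slide as a block, slide 2 alone, the replicate block, and each array left out. Slide 2 alone with 3 other normalizations was added after the data were seen.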

Additional observations from a re-analysis of the deposited data

Results flagged for a closer look

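Between slides, with the strain held fixed, 12 members had ratios that differed by the limma test of the slide term (8 arrays, adjusted over all genes). Higher on slide 2 by a log2 difference were Fdft1 (1.11), Msmo1 (0.93), Sqle (0.64), Hmgcs1 (0.62), Elovl5 (0.49), Lss (0.44), Insig1 (0.44) and Fads1 (0.35). Lower were Fasn (-0.91), Tm7sf2 (-0.57), Acss2 (-0.47) and Ggps1 (-0.36). Elovl5 and Fads1 turned to -0.018 and -0.071 under median centring. Fdft1, Lss, Insig1, Acss2 and Fads1 were not well above background on replicate 3 of *B. clausii*, its only slide 1 array. With *B. clausii*, second kept probes of Insig1, Acss2 and Fasn went the same way between slides, Fasn by less. Those of Hmgcs1, Lss, Ggps1 and Elovl5 did not.

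Between *B. clausii* and *B. bifidum*, 4 members lay above 0 on all 3 arrays of the first strain and below 0 on all 3 arrays of the second, as did 1.66% of 14908 genes, and 0 members did the reverse, beside 1.26%. The differences over all arrays were 1.11 for Idi1, 0.57 for Pmvk, 0.53 for Ebp and 0.36 for Mvk. None of these 4 passed limma's test of the difference over all arrays (adjusted p = 0.263, 0.278, 0.254 and 0.308). The second probe of Idi1 repeated the opposite signs. Those of Pmvk and Mvk did not, with -0.04 and -0.14 on replicate 3 of *B. clausii*, and Mvk with 0.33 on replicate 1 of *B. bifidum*.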

How the results depend on the processing

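Counts are members called, of 33. For *B. clausii* (5 over all arrays) they were 0 without background correction (1.65% of all genes), with the processed signals (0.289%) and with the deposited matrix (0.467%). They were also 0 with median centring or only its arrays (0% each), 2 without the filter (3.04%) and 1 with the mean of probes (2.57%). They were 14 with the slide as a block (25.2%), 18 with the replicate block (28.5%) and 29 on slide 2 alone (55.9%). On slide 2 they were 29 without background correction (54.6%), 22 with processed signals (36.7%) and 7 with median centring (26.7%). For *B. bifidum* (1) they were 0 with the processed signals (0.00658% of all genes), the matrix (0.0197%), median centring (0.0197%) or only its arrays (0%). They were 2 with the strict filter (3.01%), 5 with the slide as a block (14.0%), 6 with the replicate block (14.9%) and 19 on slide 2 alone (38.7%). On slide 2 they were 20 without background correction (43.8%), 8 with processed signals (19.0%) and 19 with median centring (36.9%). For *L. acidophilus* (0) they were 1 with the slide as a block (2.74% of all genes) and 2 with the replicate block (3.30%). Between *B. clausii* and *B. bifidum* (0) they were 1 with the slide as a block (1.54% of all genes) and 0 with the replicate block (0.0197%). On slide 2 they were 22 (29.6%), 23 without background correction (30.1%), 5 with processed signals (3.03%) and 0 with median centring (0%). Against *L. acidophilus* (0 each) the replicate block gave 15 for *B. clausii* (20.3% of all genes) and 4 for *B. bifidum* (9.42%). Numbers shared with *L. acidophilus* pair no arrays. The slide term (12) gave 5 with processed signals (15.7% of all genes) and 5 with median centring (14.6%). Leaving out 1 array at a time gave 0 to 24 for *B. clausii*, 0 to 7 for *B. bifidum*, 0 for *L. acidophilus*, 0 to 16 between *B. clausii* and *B. bifidum*, 0 to 18 and 0 to 1 for each of them against *L. acidophilus*, and 7 to 22 for the slide term. Against the results over all arrays, the reversed values with *B. clausii* were those of Pmvk (-0.028) and Ebp (-0.11) under median centring. On slide 2 alone under that centring they were -0.0052 and -0.16. Against loess on slide 2 itself, median centring turned 9 of the 21 rises with *B. clausii* and 3 values with *B. bifidum*. The slide terms of Elovl5 (-0.018) and Fads1 (-0.071) turned under median centring. Without replicate 3 of *B. clausii* the slide terms of Sc5d (-0.34), Dhcr7 (-0.39), Stard4 (-0.64) and Elovl6 (-0.46) turned, where the highest values without 1 array were 0.36, 0.57, 0.99 and 0.54. Apart from the alternatives' own loss of arrays, the cause was not tested. Of all values compared with the results over all arrays, 3867 kept direction and side of the threshold, 327 passed it newly, 113 lost it and 10 turned. Turns counted only against loess on slide 2 are not among these 10. Dim spots limit replicate 3 of *B. clausii*, where 22 of 33 members were well above background.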
